A study of Mus musculus with 9 samples.

Results

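The adipocyte and adipokine genes followed here are 10 genes chosen by name: the secreted products Adipoq, Lep and Retn, the leptin receptor Lepr, the lipid-handling genes Fabp4, Lpl, Plin1 and Cidec, the complement protease Cfd and the transcription factor Pparg. They were looked up by symbol among 22609 genes listed in the count files, and all 10 were found. Of these, 7 were among the 13366 genes that passed the filter on low counts. Adipoq, Lep and Retn did not pass and are described by their counts. The samples were tumors of 4T1, a mouse mammary carcinoma line that serves as a model of triple-negative breast cancer (TNBC), grown in BALB/c mice. The LFD and HFD groups received food with 10 or 60 kcal% fat for 6 weeks, then an injection of 500000 cells into the mammary fat pad, and stayed on that food until the end. Both were given the vehicle, 0.3% hydroxy propyl cellulose. The HFD + EC359 group had the HFD food and EC359, an inhibitor of LIFR (the leukemia inhibitory factor receptor), at 5 mg/kg, injected intraperitoneally on 5 days per week. Each group had 3 libraries, and no LFD group with EC359 was among the samples. The comparisons ask how diet-induced obesity altered these genes in the tumors, and how LIFR inhibition altered them under HFD.

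White adipocytes store triglyceride in lipid droplets and secrete hormones known as adipokines. Leptin (Lep) reports fat stores to the brain through its receptor Lepr, adiponectin (Adipoq) is secreted almost exclusively by adipocytes, and PPARγ, the product of Pparg, is the master regulator of fat cell differentiation. Several of the other genes are also used outside adipocytes: Fabp4 and Lpl are made by macrophages and by endothelial or muscle cells, and Lepr by some stromal cells. The mammary gland is embedded in a fat pad, so a tumor in this site grows among fat cells. Because the tumors and their hosts were both BALB/c, counts from carcinoma cells and from host cells were not separated. In bulk tissue a lower level can mean fewer cells of a type or less RNA per cell, and these cannot be told apart.

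Counts summed to 5085357 to 9751201 per library, with the LFD libraries the smallest of the 9. A gene without counts can therefore have a level of up to 0.30 to 0.614 CPM (counts scaled to 1000000 per library), the level of 3 counts, for counting error alone. The libraries are written below as LFD 1 to 3, HFD 1 to 3 and EC359 1 to 3 by their replicate number. LFD 1 differed most from the others of its group, with a mean chi-square per gene of 3.10 and 2.54 against LFD 2 and LFD 3, where the pairs of the other groups lay between 1.41 and 1.57. The carcinoma markers Krt8 and Krt18 were abundant in every group, with mean levels of 293 to 599 CPM, while Epcam was at 7.39, 1.37 and 5.06 CPM in LFD, HFD and HFD + EC359. Epidermal keratins and related markers summed to 1130 to 1298 CPM in LFD, 182 to 193 CPM in HFD and 545 to 555 CPM in HFD + EC359, so this sum moved with the groups, and its part in the results below was not tested. The labels name the tissue as the 4T1 line itself, while markers of macrophages, fibroblasts and endothelium were present in all 9 libraries.

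HFD tumors had more mRNA of Fabp4, Lepr, Cfd and Lpl than LFD tumors, with fold changes of 3.16, 3.11, 2.23 and 2.07. Under EC359, Lepr and Lpl were lower than in HFD, by 2.05 and 1.56 fold, and Fabp4 stayed at 19.4 ± 1.88 CPM against 19.98 ± 1.37 CPM (SD, n = 3 each). Adipoq, Lep and Retn, the adipocyte hormones, were listed with 0 to 6 counts in every library. Tested by edgeR's quasi-likelihood model, with p-values adjusted after Benjamini and Hochberg over all tested genes, 4 of the 7 tested genes rose and 0 fell in HFD against LFD at an adjusted p under 0.05, where 26.2% of all tested genes were higher and 26% were lower. Between HFD + EC359 and HFD, 0 rose and 2 fell, where 12.9% of all tested genes were higher and 14% were lower. The stricter rule of the study's methods, a fold change over 2 with an adjusted p under 0.01, kept all 4 in the first comparison (by it 3.01% of all tested genes were higher and 2.72% lower) and only Lepr in the second (2.09% higher and 1.41% lower). The 4 genes that rose also had every HFD library above every LFD library, where 28.6% of all tested genes were higher without overlap and 28.6% were lower. Both comparisons use the same HFD libraries, so a high HFD level enters both with opposite signs. The p-values rest on the spread between libraries within the groups, estimated in a single fit over all 9 libraries. The labels do not say which mice gave the libraries, so whether this spread covers differences between mice was not tested. An exact permutation test of 3 against 3 could not give a p below 0.1.

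**Figure D1:**
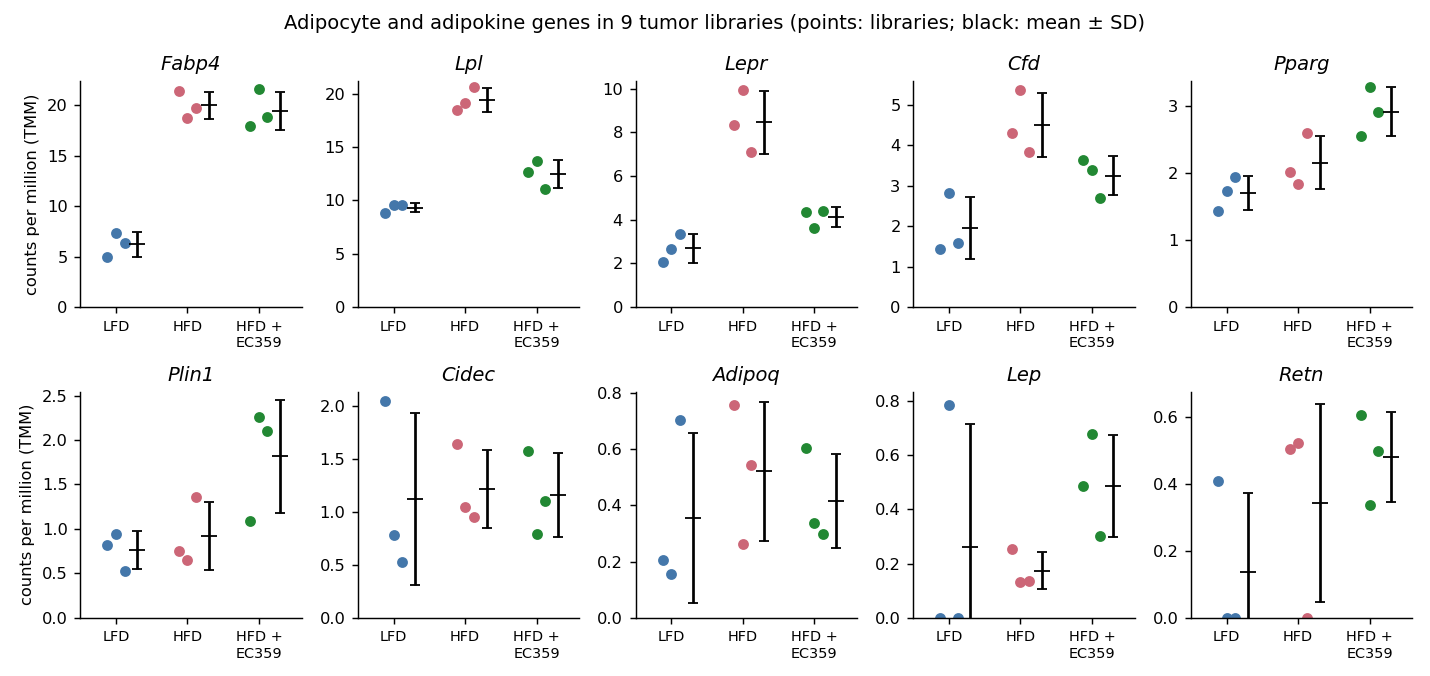
Level of each of the 10 genes in the 9 libraries, in CPM scaled with TMM factors (vertical axes, from 0, with a separate range per gene); points are libraries, and black bars are the group mean ± SD with the lower end not drawn below 0. Fabp4, Lpl, Lepr and Cfd show every HFD library above every LFD library, and Adipoq, Lep and Retn stay under 1 CPM.

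Compared per length, as CPM divided by the exon length in kilobases (RPKM), Fabp4 was the most abundant of the 10 in each group, at 9.69 ± 1.93 in LFD, 31.2 ± 2.13 in HFD and 30.3 ± 2.94 in HFD + EC359 (SD, n = 3). Its libraries did not overlap those of the next gene in any group. Lpl and Cfd came next, at 2.30 and 2.11 RPKM in LFD, 4.78 and 4.87 in HFD, and 3.08 and 3.51 in HFD + EC359, and their libraries overlapped each other in all 3 groups. In LFD, the libraries of Cfd did not overlap those of Pparg, and from Pparg at 0.856 RPKM down through Cidec, Lepr, Plin1, Adipoq and Retn to Lep at 0.0803 each gene overlapped the next. In HFD, Lepr followed Lpl without overlap at 1.27 RPKM and overlapped Pparg at 1.08, and from there down through Cidec, Plin1, Adipoq and Retn to Lep each gene again overlapped the next. In HFD + EC359, Pparg followed at 1.46 RPKM, apart from both Lpl and Plin1 at 0.948, and Plin1, Cidec and Lepr overlapped in turn. Lepr at 0.622 RPKM lay apart from Retn, Retn overlapped Adipoq, and Adipoq lay apart from Lep at 0.150.

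The secreted hormones were close to the limit of detection. Adiponectin (Adipoq, mm9 chr16:23146609-23158041, plus strand) had 1, 1 and 4 counts in LFD, 6, 2 and 4 in HFD, and 5, 3 and 3 in HFD + EC359. Leptin (Lep, mm9 chr6:29010221-29023876, plus strand) had 0, 5 and 0 counts in LFD, 2, 1 and 1 in HFD, and 4, 6 and 3 in HFD + EC359. Resistin (Retn, mm9 chr8:3655770-3659818, plus strand), a hormone of mouse adipocytes, had 2, 0 and 0 counts in LFD, 4, 4 and 0 in HFD, and 5, 3 and 5 in HFD + EC359. The groups overlapped for all 3 genes in HFD against LFD. For Lep every HFD + EC359 library had more counts than every HFD library, and at least 0.300 CPM against at most 0.252 CPM. In that comparison 20.6% of all tested genes were higher and 20.7% lower without overlap. With the counts summed per group and scaled by the library sizes, the HFD to LFD ratio was 1.48 for Adipoq with an exact 95% interval from 0.514 to 4.802, 0.591 for Lep from 0.117 to 2.75, and 2.96 for Retn from 0.590 to 28.6. The HFD + EC359 to HFD ratio was 0.774 for Adipoq (0.310 to 1.92), 2.75 for Lep (0.848 to 11.6) and 1.37 for Retn (0.527 to 3.82). These intervals cover counting error only and all include equal levels. At this depth a several-fold rise of Adipoq or Retn with HFD, or of Lep or Retn under EC359, was not detectable, and for Lep with HFD a several-fold difference in either direction was not. In the edgeR fit with every gene that had a count, the adjusted p of the 3 genes lay between 0.313 and 0.808 in these 2 comparisons.

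Lepr, on mm9 chr4:101390012-101487959 (plus strand, 20 exon blocks), encodes the receptor through which leptin activates JAK2 and STAT3. It was at 2.05, 2.67 and 3.35 CPM in the LFD libraries, at 8.32, 9.96 and 7.09 CPM in HFD, and at 4.37, 3.61 and 4.40 CPM in HFD + EC359. Every HFD library was above every library of the other groups, and the HFD + EC359 libraries lay between LFD and HFD without touching either. Lepr rose in HFD against LFD, with a log2 fold change of 1.63 ± 0.236 (SE, adjusted p = 4.72e-08 in edgeR's quasi-likelihood test), and fell in HFD + EC359 against HFD, with -1.03 ± 0.192 (adjusted p = 2.38e-05). The counts behind these values were 10 to 19 per LFD library, 52 to 76 per HFD library and 32 to 44 per HFD + EC359 library. Both calls held under all 19 alternative settings, over which the values ran from 1.33 to 1.81 and from -1.14 to -0.90. The count is per gene, so the short and long isoforms of the receptor were not told apart. The bases before the first RefSeq start of Lepr, of Cfd and of Plin1 are given to show the sequence around starts of genes with different calls. Cfd was called in HFD against LFD only, and Plin1, a classical adipocyte gene, did not pass in either comparison. Each line holds the 250 bases before a start on the gene's strand, in RefSeq for GRCm38.p6, which is not the build of the counts, and capitals mark a motif match on either strand.
Lepr, chr4:101717157-101717406, plus strand: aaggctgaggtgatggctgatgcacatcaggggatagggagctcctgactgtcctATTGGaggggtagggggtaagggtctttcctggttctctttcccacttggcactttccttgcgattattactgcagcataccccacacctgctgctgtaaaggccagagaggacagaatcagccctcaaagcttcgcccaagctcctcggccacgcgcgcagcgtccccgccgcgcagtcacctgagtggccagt
Cfd, chr10:79890603-79890852, plus strand: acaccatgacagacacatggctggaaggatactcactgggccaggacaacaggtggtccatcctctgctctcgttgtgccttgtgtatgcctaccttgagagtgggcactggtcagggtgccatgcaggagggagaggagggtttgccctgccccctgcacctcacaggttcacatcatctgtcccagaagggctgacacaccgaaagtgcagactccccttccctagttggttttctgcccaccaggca
Plin1, chr7:79732777-79733026, minus strand: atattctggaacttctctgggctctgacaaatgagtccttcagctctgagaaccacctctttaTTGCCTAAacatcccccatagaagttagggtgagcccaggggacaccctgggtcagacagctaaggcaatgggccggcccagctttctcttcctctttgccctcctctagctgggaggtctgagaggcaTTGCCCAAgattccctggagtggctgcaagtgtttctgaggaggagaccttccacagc
Motifs were searched on both strands in 32851 RefSeq windows of this length. The CCAAT box, spelled CCAAT, was found in 33.8% of them, and once in the Lepr window, on the minus strand 195 to 191 bases before the start. The C/EBP pattern, spelled TTGCNNAA, was found in 9.56% of windows, and in the Plin1 window at 187 to 180 and at 58 to 51 bases before the start. The Cfd window held no match to any of the letters searched. These also included the TATA box, spelled TATAAA and found in 12.4% of windows. The nuclear receptor half-site, spelled AGGTCA, was found in 14.0% of windows. A direct repeat of this half-site with 1 base between its copies, each of which also counts as a half-site, was found in 0.0335%. The STAT pattern, spelled TTCNNNGAA, was found in 7.02% and the GC box, spelled GGGCGG, in 32.7%. The window of a second Lepr start, not printed here, held a GC box 164 to 159 bases before that start and no CCAAT box. Of the 10 genes, 8 had such a window.

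Genes that act with the leptin receptor were more often lower than higher in both comparisons. Of the 12 genes of leptin receptor signaling, all tested, 2 rose and 7 fell in HFD against LFD, with a median log2 fold change of -0.16 against 0.01 for all tested genes. With EC359, 1 rose and 6 fell against HFD, with a median of -0.12 against 0.01, and without HFD 2 the sum of calls was 4. Among all tested genes 26.2% were higher and 26% lower with HFD, and 12.9% and 14% under EC359. Stat3, which carries the leptin signal to the nucleus, was at 357 ± 7.5 CPM in LFD and 345 ± 12 in HFD, with a log2 difference of -0.05 (adjusted p = 0.253), and fell under EC359 by 0.13 (0.00472, lost without HFD 2 at -0.11). Jak2, the kinase bound to the receptor, fell in both comparisons, with -0.16 ± 0.037 and -0.20 ± 0.037. Socs3, a STAT3 target that inhibits the receptor, also fell in both, with -0.40 ± 0.051 and -0.34 ± 0.051, from 266 ± 17 CPM in LFD to 201 ± 9.6 in HFD and 159 ± 13 in HFD + EC359. Leprot, whose product limits receptor at the cell surface, rose in HFD by a log2 fold change of 0.48 ± 0.067. Irs1, an adaptor shared with the insulin receptor, rose in HFD with 0.40 ± 0.045 and fell under EC359 with -0.38 ± 0.043. The phosphatase Ptpn11 fell in HFD with -0.27 ± 0.043, and under EC359 with -0.12 (adjusted p = 0.0248), a call lost without HFD 1 (-0.11), HFD 2 (-0.12), EC359 1 (-0.11) or EC359 3 (-0.12). Stat5a rose under EC359 with 0.22 (0.0306), a call lost without HFD 1 (0.24), HFD 2 (0.15), EC359 1 (0.20) or EC359 2 (0.16).

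Fabp4, on mm9 chr3:10204343-10208576 (minus strand, 4 exon blocks), encodes a fatty acid carrier of adipocytes, macrophages and capillary endothelium. Its level was 4.91, 7.38 and 6.34 CPM in LFD, 21.4, 18.7 and 19.8 CPM in HFD, and 18.0, 21.6 and 18.8 CPM in HFD + EC359. Both HFD groups lay above every LFD library and overlapped each other. The log2 fold change was 1.66 ± 0.153 in HFD against LFD (adjusted p = 8.44e-14) and 1.62 ± 0.151 in HFD + EC359 against LFD (adjusted p = 6.58e-14). Between HFD + EC359 and HFD it was -0.04 ± 0.109 (adjusted p = 0.834 by edgeR's quasi-likelihood test), with a range from -0.15 to 0.01 over the alternatives, and its sign turned without HFD 1 or EC359 1. The Fabp4 response to diet ran from 1.46 to 1.87 over 19 alternatives and was called in each.

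Lpl, on mm9 chr8:71404454-71430831 (plus strand, 10 exon blocks), encodes lipoprotein lipase, which releases fatty acids from circulating triglyceride. Its level was 8.80, 9.58 and 9.52 CPM in LFD, 18.4, 19.1 and 20.6 CPM in HFD, and 12.6, 13.7 and 11.1 CPM in HFD + EC359. The 3 groups did not overlap, with the HFD + EC359 libraries nearer to LFD. Lpl rose in HFD with a log2 fold change of 1.05 ± 0.140 (adjusted p = 5.69e-09) and fell under EC359 with -0.64 ± 0.118 (adjusted p = 2.21e-05, edgeR's quasi-likelihood test). Both calls held under 19 alternatives, from 0.82 to 1.09 and from -0.71 to -0.56.

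Of 19 partners of lipoprotein lipase, 14 were tested. In HFD against LFD 3 rose and 5 fell (median log2 fold change 0.01), where 26.2% of all tested genes were higher and 26% lower. In HFD + EC359 against HFD 1 rose and 2 fell (median 0.03), where 12.9% of all tested genes were higher and 14% lower, and the shares of the list lay near these. The count of 3 in the second comparison was 7 without LFD 1 and 5 without LFD 2 or EC359 2. Those that rose with HFD were Gpihbp1, which anchors the lipase on capillary endothelium, the fatty acid transporter Cd36, from 4.53 ± 0.92 to 10.97 ± 0.87 CPM (log2 fold change 1.25 ± 0.191), and Apoc2, the lipase's cofactor. Apoc2 was at 1.20 ± 0.47 and 2.47 ± 0.89 CPM, and its log2 fold change of 1.06 (adjusted p = 0.0232) lost its call without LFD 3 (0.80) or HFD 1 (0.75) and with DESeq2 (1.06, adjusted p = 0.0969). Lipg, an endothelial lipase, fell with HFD from 12.1 ± 1.3 to 6.03 ± 1.1 CPM, and the protease Furin by 0.38 ± 0.040 on the log2 scale. Lrp1, the most abundant of the list at 2593, 2576 and 2429 CPM, differed by -0.01 in HFD against LFD (adjusted p = 0.767), was called higher there with an offset for GC content and length (0.10, adjusted p = 0.000152), and fell by 0.08 under EC359 (0.00659), a call lost with library totals alone (-0.05) or with that offset (-0.03). Under EC359, Furin fell with -0.13 (0.00753), lost without HFD 1 (-0.11), HFD 2 (-0.12) or EC359 3 (-0.12) and with the GC offset (-0.03). Sel1l, needed for export of the folded lipase, rose with 0.15 (0.00886), lost without HFD 1 (0.13), HFD 2 (0.13) or EC359 3 (0.14).

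Cfd, on mm9 chr10:79353598-79355401 (plus strand, 5 exon blocks), encodes adipsin, the complement factor D that adipocytes secrete and that starts the alternative pathway. It was at 1.43, 2.83 and 1.59 CPM in LFD, 4.29, 5.37 and 3.82 CPM in HFD, and 3.64, 3.39 and 2.70 CPM in HFD + EC359. The HFD libraries lay above all others, and the highest LFD library was above the lowest HFD + EC359 library. Cfd rose in HFD against LFD, with 1.16 ± 0.298 on the log2 scale (adjusted p = 0.000863, edgeR's quasi-likelihood test) and a range from 1.0 to 1.55 over the alternatives, all called. Under EC359 the value against HFD was -0.48 ± 0.240 (adjusted p = 0.134) and was called in none of 18 alternatives, although the libraries of the 2 groups did not overlap. Cfd, Lepr and Lpl were the 3 tested genes without overlap and lower in that comparison, where 20.6% of all tested genes were higher and 20.7% lower without overlap.

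Other genes of the alternative complement pathway were mostly higher with HFD. Of 9 listed, 8 were tested, and 5 rose and 0 fell in HFD against LFD (median log2 fold change 0.42), while 2 rose and 3 fell in HFD + EC359 against HFD (median -0.15). The shares over all tested genes were 26.2% higher and 26% lower with HFD, and 12.9% and 14% under EC359. Cfb, the substrate of factor D, rose with HFD by a log2 fold change of 0.57 ± 0.089 and fell under EC359 with -0.52 ± 0.082, from 45.7 ± 2.1 to 31.9 ± 1.5 CPM, near the LFD level of 30.7 ± 3.9 CPM. C3, the central component, rose with 0.27 ± 0.043 and was at -0.09 under EC359 (adjusted p = 0.112), a value called without LFD 1 (-0.09). The receptor C3ar1, found on macrophages, rose in both comparisons, with 0.59 ± 0.101 and 0.45 ± 0.083. Masp1, whose products include an activator of factor D, rose under EC359 with 0.38 ± 0.077. Properdin (Cfp) rose with HFD by 0.16 (adjusted p = 0.0393), a call lost without LFD 1 (0.13), LFD 2 (0.16), HFD 1 (0.17) or HFD 3 (0.13), and was at 0.01 under EC359 (0.926). C5ar1 was at 0.11 in HFD against LFD (adjusted p = 0.244) and fell under EC359 with -0.22 (0.0245), lost without HFD 1 (-0.16), EC359 1 (-0.20) or EC359 3 (-0.23) and with library totals alone (-0.18).

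Pparg, on mm9 chr6:115311239-115440419 (plus strand, 9 exon blocks), had 7 to 11 counts per LFD library, 14 to 19 per HFD library and 21 to 29 per HFD + EC359 library. Its level was 1.43, 1.73 and 1.94 CPM in LFD, 2.02, 1.83 and 2.59 CPM in HFD, and 2.55, 3.27 and 2.90 CPM in HFD + EC359. HFD overlapped both other groups, and HFD + EC359 lay above LFD without overlap. The log2 fold change was 0.32 ± 0.354 in HFD against LFD (adjusted p = 0.466) and 0.44 ± 0.283 in HFD + EC359 against HFD (adjusted p = 0.266, edgeR's quasi-likelihood test), and neither was called under any of 18 alternatives.

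Of 31 partners of PPARγ and regulators of adipogenesis, 26 were tested, of which 12 rose and 6 fell in HFD against LFD (median log2 fold change 0.13), and 6 rose and 5 fell in HFD + EC359 against HFD (median 0.07). The second count of 11 was 7 without HFD 2 and 5 without EC359 1. Among all tested genes 26.2% were higher and 26% lower with HFD, and 12.9% and 14% under EC359. The corepressor Ncor1 and the acetyltransferase Crebbp rose with HFD by 0.30 ± 0.039 and 0.19 ± 0.040. Under EC359 they were at 0.08 (adjusted p = 0.105) and 0.07 (0.204), and Ncor1 was called without LFD 1 (0.08) and, like Crebbp, with library totals alone (0.11 and 0.10). Klf5 and Gata2, which promote and restrain adipogenesis, fell with HFD by 1.19 ± 0.085 and 0.77 ± 0.142. Ebf2, a factor of adipocyte precursors, had 3 to 6 counts per library in LFD, 11 to 22 in HFD and 8 to 9 in HFD + EC359, or 0.871 ± 0.23, 2.34 ± 0.73 and 0.969 ± 0.15 CPM. It passed the filter on low counts through the HFD group alone, where it was high. Its fitted values of 1.39 ± 0.421 with HFD and -1.28 ± 0.364 under EC359 are therefore given as a description. The second was not called with DESeq2 (-1.29, adjusted p = 0.0672). Ebf2 is still counted among the 12 genes that rose with HFD and the 5 that fell under EC359. Its relative Ebf1 and the early factor Egr2 fell under EC359 with -0.68 ± 0.184 and -0.55 ± 0.110. Ebf1 was called higher with HFD, at 5.10 ± 1.1, 8.03 ± 1.1 and 4.99 ± 0.66 CPM in LFD, HFD and HFD + EC359.

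Plin1 and Cidec encode proteins that coat and enlarge the lipid droplet of fat cells. Plin1, on mm9 chr7:86866050-86877662 (minus strand, 9 exon blocks), was at 0.818, 0.942 and 0.529 CPM in LFD, 0.757, 0.655 and 1.36 CPM in HFD, and 1.09, 2.26 and 2.1 CPM in HFD + EC359. The HFD libraries overlapped both other groups. Plin1 passed the filter on low counts only through libraries of the groups on HFD food, so its fitted values are given as a description. The log2 fold change was 0.25 ± 0.544 in HFD against LFD (adjusted p = 0.721), and its sign turned without HFD 3. In HFD + EC359 against HFD it was 0.99 ± 0.400 (adjusted p = 0.0579, edgeR's quasi-likelihood test), on 50 against 21 counts in all. That value passed the threshold without LFD 1 (0.99, adjusted p = 0.0486), HFD 3 (1.36, 0.0370) or EC359 1 (1.23, 0.0287), and it was called in 7 of 17 alternatives. Cidec, on mm9 chr6:113374630-113385749 (minus strand, 6 exon blocks), was at 2.05, 0.785 and 0.529 CPM in LFD, 1.64, 1.05 and 0.954 CPM in HFD, and 1.58, 0.790 and 1.10 CPM in HFD + EC359. Its groups overlapped throughout, with log2 fold changes of 0.19 ± 0.484 and -0.09 ± 0.425 (adjusted p = 0.759 and 0.903).

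Of the wider adipocyte program of lipid storage and release, the genes that passed the filter were more often lower than higher in HFD tumors. Adrb3, Aqp7, Slc2a4, Pck1, Ucp1 and Cidea were among the genes of this list that did not pass it, and the calls leave all of those out. Among all tested genes 26.2% were higher and 26% lower with HFD, and 12.9% and 14% under EC359. Of 36 genes listed, 24 were tested, of which 3 rose and 14 fell in HFD against LFD (median log2 fold change -0.42 against 0.01 for all tested genes), and 6 rose and 4 fell in HFD + EC359 against HFD (median 0.11). Scd1, the desaturase that makes oleate, fell from 169 ± 8.4 CPM in LFD to 67.8 ± 3.0 in HFD, with -1.32 ± 0.055, and was higher again under EC359 at 96.2 ± 4.0 CPM, with 0.51 ± 0.056. Fabp5, the epidermal relative of Fabp4, fell from 41.8 ± 7.9 to 17.8 ± 2.6 CPM, with -1.25 ± 0.115, and rose under EC359 to 39.8 ± 2.4 CPM, with 1.16 ± 0.109. Its course was unlike that of Fabp4, which rose with HFD and stayed up under EC359. Epidermal markers had the same order of groups as Scd1 and Fabp5, and their part in these values was not tested. Plin4, a coat protein of adipocyte droplets, rose under EC359 with 0.67 ± 0.178, and Cebpd, an early adipogenic factor, fell with -0.52 ± 0.098. Plin4 was called lower with HFD, at 10.9 ± 0.39, 4.81 ± 0.24 and 7.65 ± 0.63 CPM in LFD, HFD and HFD + EC359. Cebpb, the most abundant of the list at 1019 ± 81 CPM in LFD and 768 ± 29 in HFD, fell by 0.41 ± 0.042 with HFD and by 0.22 ± 0.042 under EC359. With an offset for GC content and length it was at 0.03 and -0.04 without a call. Plin2, a droplet protein of many cell types, was at 177 ± 1.7, 168 ± 1.1 and 164 ± 2.9 CPM, with differences of -0.08 and -0.04 (adjusted p = 0.152 and 0.570).

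**Figure D2:**
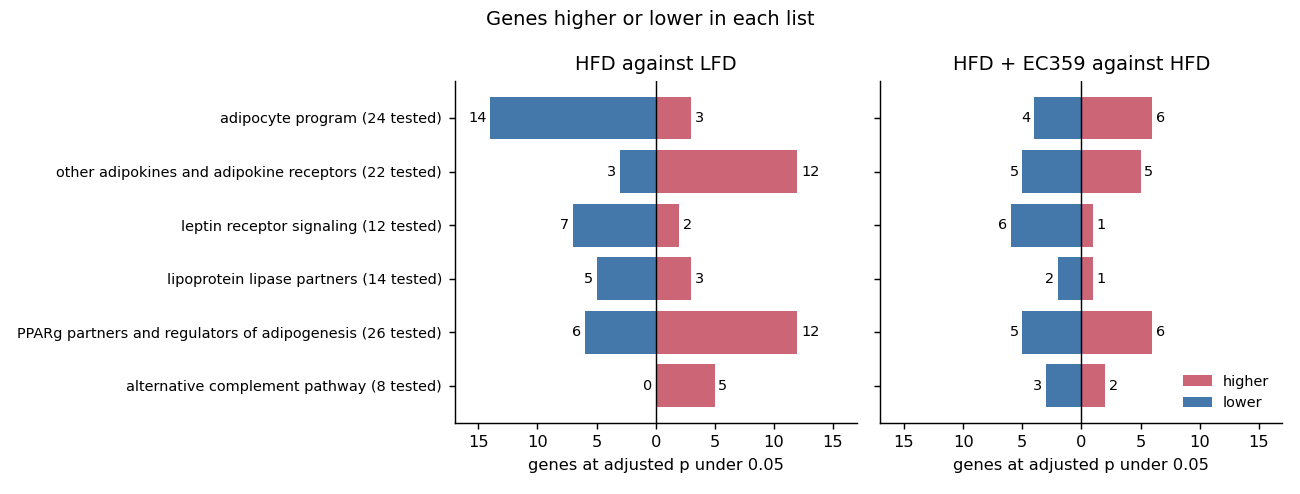
Number of genes higher (right) or lower (left) at an adjusted p under 0.05 in each list, for HFD against LFD and HFD + EC359 against HFD; the number of tested genes stands after each list's name. In HFD against LFD the adipocyte program has 14 lower and 3 higher genes, and the alternative complement pathway has 5 higher and 0 lower. Of all tested genes, 26.2% were higher and 26% lower there.

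Other adipokines and their receptors were more often higher than lower with HFD. Of 28 listed, 22 were tested, of which 12 rose and 3 fell in HFD against LFD (median log2 fold change 0.35), and 5 rose and 5 fell in HFD + EC359 against HFD (median -0.03), with 6 calls in all without EC359 3. The shares over all tested genes were 26.2% higher and 26% lower with HFD, and 12.9% and 14% under EC359. Retnla, a resistin relative made by macrophages and eosinophils, was at 0.467 ± 0.36 CPM in LFD and 2.19 ± 0.51 in HFD. It had 1 to 5 counts per library in LFD, 13 to 20 in HFD and 15 to 17 in HFD + EC359. Because it passed the filter on low counts only through the groups on HFD food, where it was high, its fitted 2.17 ± 0.498 is given as a description. It is still counted among the 12 genes that rose. Lcn2, an iron-binding adipokine also made by neutrophils and epithelia, rose from 39.8 ± 6.5 to 101 ± 5.6 CPM, with 1.33 ± 0.075. The apelin receptor Aplnr, found on endothelium, rose from 11.4 ± 0.68 to 29.0 ± 2.3 CPM and fell under EC359 to 13.2 ± 0.83 CPM, with log2 fold changes of 1.34 ± 0.121 and -1.13 ± 0.105. Chemerin (Rarres2) fell under EC359 from 32.8 ± 1.5 to 15.2 ± 1.2 CPM, with -1.10 ± 0.0996, and Stra6, the receptor of retinol-binding protein, from 10.6 ± 0.90 to 3.73 ± 1.1 CPM, with -1.49 ± 0.185. Both were called higher in HFD than in LFD, where they were at 17.2 ± 1.8 and 6.40 ± 1.0 CPM. Cap1, a binding partner of human resistin, rose with HFD by 0.32 ± 0.046 and under EC359 by 0.13 (adjusted p = 0.0226), a call lost without HFD 1 (0.14), HFD 2 (0.09), EC359 1 (0.13) or EC359 3 (0.10). C1qtnf1, an adiponectin paralog, fell with HFD by 0.18 ± 0.046 and rose under EC359 with 0.14 (0.0127), lost without HFD 3 (0.12), EC359 1 (0.13) or EC359 3 (0.13). The adiponectin receptor Adipor1 was at 168 ± 5.0, 162 ± 5.8 and 156 ± 7.2 CPM, with differences of -0.05 and -0.06 (adjusted p = 0.396 and 0.331).

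In HFD + EC359 against LFD, which contrasts both treatments at once and shares its libraries with the other comparisons, 5 of the 7 tested genes rose and 0 fell, where 29.2% of all tested genes were higher and 29.1% were lower. The same 5 had every HFD + EC359 library above every LFD library, where 31.8% of all tested genes were higher and 31.1% lower without overlap. Among them, Plin1 had 3 to 6 counts per library in LFD, 5 to 10 in HFD and 9 to 21 in HFD + EC359. It passed the filter on low counts only through libraries on HFD food, so its call here is given as a description. By a fold change over 2 with an adjusted p under 0.01, Fabp4 alone passed, where 3.67% of all tested genes were higher and 1.44% lower. The other calls had adjusted p-values between 0.0144 and 0.0464, with Plin1 at 1.24 ± 0.457 (adjusted p = 0.0168), Pparg at 0.76 ± 0.323 (0.0390), Lepr at 0.60 ± 0.265 (0.0464) and Lpl at 0.41 ± 0.148 (0.0144), by edgeR's quasi-likelihood test. Cfd was at 0.68 ± 0.310 (0.0556) and Cidec at 0.10 ± 0.476 (0.867). The count of 5 was 2 without EC359 2 and 3 without LFD 1, LFD 3 or EC359 3. Lpl lost its call without EC359 2 (0.34), and Plin1 without LFD 3 (1.04), EC359 2 (1.08) or EC359 3 (1.12). Lepr lost it without LFD 1 (0.46), LFD 2 (0.58), HFD 1 (0.60), EC359 1 (0.57) or EC359 3 (0.54). Pparg lost it without LFD 1 (0.67), LFD 2 (0.76), LFD 3 (0.86), EC359 2 (0.67) or EC359 3 (0.76). Cfd passed without LFD 2 (1.07) or EC359 3 (0.80).

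**Figure D3:**
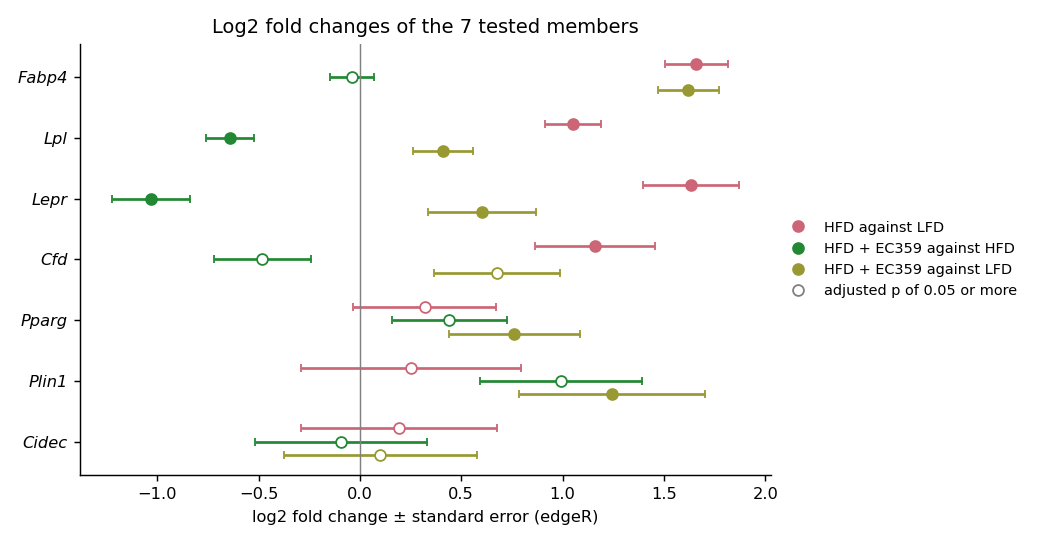
Log2 fold change of the 7 tested genes (horizontal axis) with the standard error of the edgeR fit as bars, for the 3 comparisons in separate colours; filled points have an adjusted p under 0.05. Fabp4 stands near 1.6 against LFD with and without EC359 and near 0 between the HFD groups, while Lepr and Lpl lie below 0 under EC359.

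The summed level of mature adipocyte markers overlapped between LFD and HFD and was higher in every HFD + EC359 library. Of 11 such markers, which include Adipoq, Plin1, Cidec, Lep and Cfd, 5 were tested, and 1 rose (Cfd) and 1 fell (Plin4) with HFD, and 1 (Plin4) rose under EC359 (2 without LFD 1, HFD 3 or EC359 1). Among all tested genes 26.2% were higher and 26% lower with HFD, and 12.9% and 14% under EC359. The sum of the 11 markers was 39.7 to 42.5 CPM in LFD, 38.0 to 40.8 in HFD and 45.9 to 49.6 in HFD + EC359, most of it from the lipase Lipe at 24.1, 25.9 and 29.8 CPM. Of the defining markers, Lep was at 0 in 2 LFD libraries, and Adrb3, Aqp7 and Pck1 had at most 9 counts in any library. Of the 6 brown adipocyte markers, Ucp1 had 0 to 3 counts per library, and the summed level of 78.1 to 84.8 CPM in LFD, 114 to 121 in HFD and 88.8 to 100 in HFD + EC359 came mostly from the deiodinase Dio2. Of the 2 tested, 1 rose (Dio2) and 1 fell (Elovl3, which passed the filter through LFD alone) with HFD, and 1 (Dio2) fell under EC359, with 2 calls without LFD 1 or EC359 3.

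Markers of other cells also differed between the groups, and not all in the direction of these genes. The shares over all tested genes were 26.2% higher and 26% lower with HFD, and 12.9% and 14% under EC359. All 10 endothelial markers rose with HFD and 7 fell under EC359. Their sums were 470 to 503, 743 to 775 and 638 to 665 CPM in LFD, HFD and HFD + EC359, the same order of groups as for Lepr, Lpl and Cfd. Of the single markers, Tie1 (44.4, 60.6 and 38.8 CPM) and Egfl7 (56.3, 79.3 and 52.1 CPM) did not have that order, and the others did. Preadipocyte and fibroblast markers summed to 708 to 712, 926 to 935 and 963 to 984 CPM, with 8 of 9 tested higher with HFD, and 1 higher and 4 lower under EC359. Of this list, Pi16 (21.7, 49.1 and 23.8 CPM), Dpp4, Cd34, Zfp423, Pdgfrb and Dcn also had that order of groups. Pdgfra, the most abundant at 323, 375 and 476 CPM, did not, nor did Lum, Ly6a and Dlk1. Macrophage markers summed to 2078 to 2129, 2260 to 2300 and 2848 to 2867 CPM, with 7 of 11 higher and 2 lower with HFD and 10 higher under EC359. Neutrophil markers summed to 110 to 131, 151 to 167 and 177 to 185 CPM, with 4 of 8 tested higher with HFD, and 4 higher and 2 lower under EC359. Epidermal markers fell in 7 of 8 tested with HFD and rose in 7 under EC359, with Krt14, Krt5 and Krt1 among them. Sebaceous gland markers summed to 36.8 to 38.1, 10.7 to 11.3 and 16.3 to 19.5 CPM, with 3 of 4 tested lower with HFD and 2 higher under EC359 (1 without HFD 1, HFD 2 or EC359 1). Of these, Awat1 and Elovl3 passed the filter on low counts through the LFD group alone, where they were high, and of the 2 markers with at least 10 counts in every library 1 (Fa2h) was lower with HFD and higher under EC359. Skeletal muscle markers summed to 116 to 128, 128 to 138 and 105 to 110 CPM, with 3 of 7 tested higher and 1 lower with HFD, and 1 higher and 3 lower under EC359. Carcinoma epithelium markers summed to 1115 to 1136, 705 to 715 and 763 to 792 CPM, with 4 of 4 tested lower with HFD and 3 higher under EC359. The part of each cell type in the levels of the 10 genes was not tested.

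**Figure D4:**
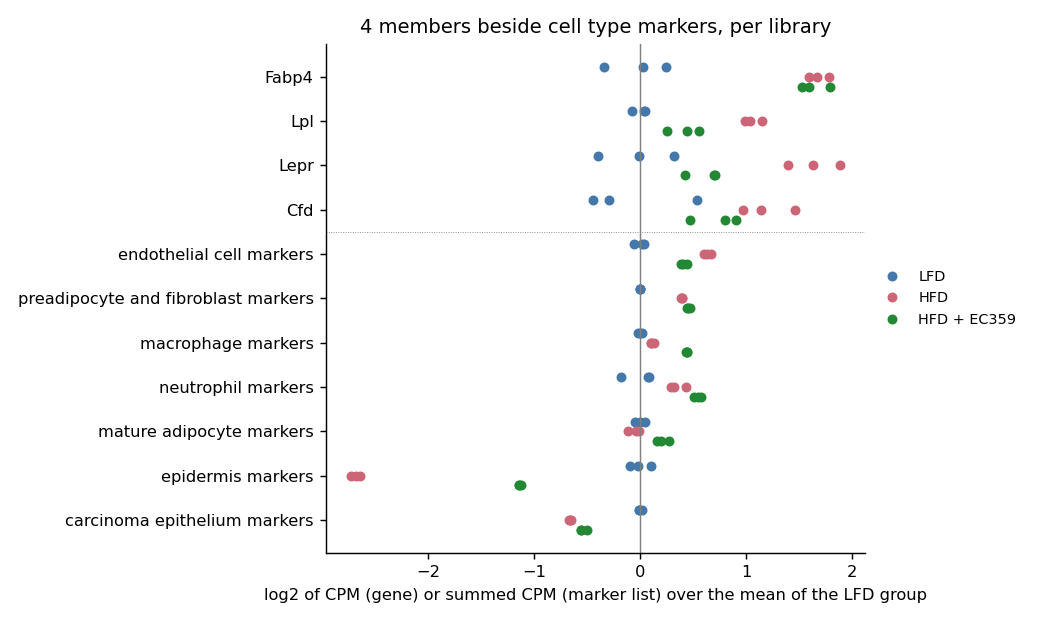
Fabp4, Lpl, Lepr and Cfd (above the dotted line) beside summed levels of cell type markers (below it), each as the log2 of its level in a library over the mean of the LFD group, so that 0 is the LFD mean; each point is a library. Endothelial markers and Lepr, Lpl and Cfd are highest in HFD and on average intermediate in HFD + EC359, whereas mature adipocyte markers in HFD lie within or just below the LFD range. The preadipocyte and fibroblast sum is highest in HFD + EC359, as is its most abundant gene, Pdgfra, although Pi16, Dpp4, Cd34 and Zfp423 of that list are highest in HFD.

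Among 13309 tested genes with a mean of at least 1 CPM, the genes closest in pattern to each of the 4 that passed the stricter rule were found by the mean absolute difference of centred log2 CPM over the 9 libraries. The closest to Lepr were Fndc1 (0.13), Mctp1 (0.13) and Serpina3n (0.14), and Fndc1 went from 14.0 ± 1.9 CPM in LFD to 41.3 ± 1.3 in HFD and 20.2 ± 1.1 in HFD + EC359. The closest to Fabp4 were Dcn (0.12), Hist1h2bp (0.12) and Zfp458 (0.13), and Dcn, the fibroblast proteoglycan decorin, was at 27.3 ± 5.4, 76.2 ± 4.8 and 69.9 ± 3.5 CPM. The closest to Lpl were Prex2 (0.06), the endothelial receptor Acvrl1 (0.08) and Dpysl3 (0.09), and Prex2 was at 13.2 ± 1.2, 29.3 ± 1.9 and 19.0 ± 0.35 CPM. The closest to Cfd were Coro2b (0.11), Plag1 (0.13) and Arhgap29 (0.16), with Coro2b at 2.46 ± 0.32, 6.06 ± 0.78 and 4.72 ± 0.57 CPM. All these values are descriptions over the same 9 libraries.

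GC content moved with the fold changes over all genes. In HFD against LFD the median log2 fold change was 0.27 for the 3342 genes with at most 45.8% GC and -0.23 for the 3342 with at least 55.4% GC, and in HFD + EC359 against HFD it was 0.08 and -0.07. Lepr, Fabp4 and Lpl are among the GC-poor genes, at 42.0%, 43.5% and 43.6% of their exon bases, while Cfd is at 58.4%. With an offset for GC content and length, the HFD against LFD values were 1.33 for Lepr, 1.46 for Fabp4, 0.82 for Lpl and 1.39 for Cfd, and those of HFD + EC359 against HFD were -1.12 for Lepr and -0.71 for Lpl, all still called. Against LFD, in the HFD + EC359 group, the offset took the calls of Lepr (0.21), Lpl (0.11) and Pparg (0.58) away and gave one to Cfd (0.96), where the medians of the GC-poor and GC-rich genes were 0.36 and -0.30. Between HFD + EC359 and HFD it gave Plin1 a call (1.09, adjusted p = 0.0342).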

How the data were processed

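Gene tables from 9 tumor RNA-seq libraries, with 3 per group, were analysed. The labels do not say which mice gave them. They hold expected counts, which the authors obtained with featureCounts 1.5.0-p1 by assigning read pairs to mm9 exons per the file headers, with the reverse-strand setting, a mapping quality of at least 2 and multi-mapped or multi-gene pairs split into fractions, without normalization. HISAT2 2.1.0 stands in the submitters' processing notes, whereas the methods name TopHat2 and HTSeq. Between 1.19% and 3.55% of a library's genes had fractional values, and none of the 10 genes, whose exons overlap no other gene on either strand. Counts were rounded to whole numbers. The rounded totals, 5085357 to 9751201, set the precision of low genes, and intervals cover counting error only.

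Groups and replicate numbers came from the labels. In R 4.3.3 with edgeR 4.0.16, genes were filtered with filterByExpr and normalized by TMM. A single quasi-likelihood fit of the 3 groups gave the 3 comparisons, with Benjamini-Hochberg adjustment over 13366 genes and a threshold of 0.05. DESeq, which the methods name, is represented by DESeq2 1.42.0 as an alternative. Log2 CPM for likeness used a prior count of 2. Interval ratios used conditional exact binomial limits at 95%. Named genes were the 10 genes and, per list, the 3 most abundant tested and the 3 called with the largest change in HFD against LFD and in HFD + EC359 against HFD, fewer where fewer were called. For 3 of the genes so named, no values are reported here. Gpihbp1, Abhd5, Cav1, Krt1, Krt5, Krt14 and the other single marker genes were named in addition, after their values were seen. The 10 genes, the 6 lists and the 10 marker lists were chosen with earlier results of these data known. Ly6g and Flg were not analysed here. Loci of the counts are mm9. Promoter windows are from RefSeq for GRCm38.p6. The steps were tested on simulated data. Thinning of counts was added after seeing the data.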

Additional observations from a re-analysis of the deposited data

How the results depend on the processing

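With 3 libraries per group and 3 to 76 counts per library for Lepr, Cfd, Pparg, Plin1 and Cidec, small differences of these genes were not detectable. Of 376 values of the 7 tested genes under the alternatives, 324 kept direction and side of the threshold, 28 lost and 13 gained a call, and 11 changed sign; for the named list genes these were 1116, 56, 8 and 11 of 1191. Where a value changed, the cause was not tested unless the alternative holds fewer libraries or genes.

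The 4 calls in HFD against LFD were 4 under the stricter rule and every alternative but the filter of 10 counts in every library, which Cfd does not pass (3). The 2 in HFD + EC359 against HFD were 1 (Lepr) by the stricter rule, 2 to 3 with a library left out, and 3, with Plin1 added, with library totals, the 6 libraries alone or the GC offset. The 5 in HFD + EC359 against LFD were 1 with DESeq2, 1 by the stricter rule, and 3 with all genes with a count, with at least 10 counts in every library, with the 6 libraries alone, with the GC and length offset with or without the replicate block, and with counts thinned to the smallest library. The filter of 10 counts left 3 of the 7 genes tested, and the 6 libraries alone or thinning left 5. Plin1 was not tested in these settings. With a library left out, the calls in HFD + EC359 against LFD ran from 2 to 5. The same replicate numbers did not pair the libraries, with correlations of deviations from -0.0297 to 0.0170, and a replicate block gave 4, 2 and 6 calls in the 3 comparisons, Cfd being added in the last (0.70, adjusted p = 0.0467).

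Over all tested genes, calls in HFD + EC359 against HFD were 3604, and 2344 with DESeq2. With library totals alone they were 2150 higher and 1512 lower, against 1728 and 1876. The stricter rule gave 765, 469 and 683 in the 3 comparisons against 6979, 3604 and 7799. DESeq2 gave 6, 4 and 6 calls in HFD + EC359 against HFD for PPARγ partners, leptin receptor signaling and other adipokines, against 11, 7 and 10. Thinning gave 7 and 3 for the first 2, and lipase partners had 6 with the 6 libraries alone and 1 with the GC offset, against 3. Mature adipocyte markers had 1 call there and 3 with the GC offset or library totals.

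Without one library each, the log2 fold change of Fabp4 in HFD + EC359 against HFD ran from -0.12 to 0.014 and that of Plin1 in HFD against LFD from -0.12 to 0.45. Cidec ran from -0.13 to 0.86, from -0.35 to 0.19 and from -0.22 to 0.77 in the 3 comparisons. None of these was called in any such fit. Lrp1 (-0.028 to 0.0066) in HFD against LFD and Cfp (-0.027 to 0.042) under EC359 changed sign as well. In HFD against LFD the GC offset, without and with the replicate block, turned Cebpb (0.028 in both) and Adipor1 (0.0073 and 0.0058) without a call and Lrp1 (0.096 in both) with one (adjusted p = 0.000152 and 0.000264), and library totals turned Lrp1 (0.034). DESeq2 took the calls of Apoc2 and Cfp in HFD against LFD (adjusted p = 0.0969 and 0.129) and those of Cap1, C1qtnf1, Ptpn11, Stat5a, Sel1l, Ebf2 and C5ar1 under EC359 (0.0551 to 0.147). Between HFD + EC359 and HFD, Plin2 turned when thinned (0.027).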

Other observations

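The gene lists around the 10 genes were also compared between HFD + EC359 and LFD, a comparison that shares its libraries with the other 2. Of the 24 tested genes of the adipocyte program, 4 rose (Lipe, Abhd5, Cd36 and Cav1) and 15 fell, with a median log2 fold change of -0.39. Of the 22 other adipokines and receptors, 8 rose and 4 fell (median 0.11). The 8 include Retnla, which passed the filter only through the groups on HFD food. Of the 12 genes of leptin receptor signaling, 1 rose (Leprot) and 7 fell (median -0.22). Of the 14 lipase partners, 5 rose and 6 fell (median 0.14), of the 26 PPARγ partners 9 rose and 7 fell (median 0.14), and of the 8 complement genes 5 rose and 0 fell (median 0.19). Over all tested genes the median was 0.01, and 29.2% were higher and 29.1% lower.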
